A study of Mus musculus with 20 samples.

Results

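The genes described here are 6 genes of fructose metabolism, Khk, Tkfc, Glyctk, Sord, Slc2a5 and Slc2a8, taken by name from 28100 genes listed in either of 2 count tables of mouse liver RNA. The livers came from 20 male C57BL/6J mice, 5 per group, that received an AAV8 vector intravenously at 8 weeks of age. The shPKLR group received a hairpin RNA against Pklr, the gene of liver pyruvate kinase, and its control, shLUC, a hairpin against firefly luciferase. The PKLR group received the Pklr cDNA and its control received GFP. All 4 vectors used the thyroxine binding globulin promoter, which is active in hepatocytes, so other liver cells were not targeted by design. All 4 groups, controls included, were kept on a high-fat high-sucrose diet (HF/HS) until 25 weeks of age, so no group here was uninjected or on another diet.

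Sucrose delivers glucose and fructose in equal parts, and the liver takes up much of the fructose that reaches the portal vein. Ketohexokinase phosphorylates it to fructose 1-phosphate, that is split into dihydroxyacetone phosphate and glyceraldehyde, and triokinase phosphorylates the glyceraldehyde, so the carbon enters glycolysis below phosphofructokinase and above pyruvate kinase. Fructose is also made inside cells by the polyol pathway, in which aldose reductase turns glucose into sorbitol and sorbitol dehydrogenase turns sorbitol into fructose.

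By role, Slc2a5 and Slc2a8 encode the sugar transporters GLUT5, the fructose carrier of the small intestine, and GLUT8, a carrier held largely in intracellular membranes. Khk encodes ketohexokinase, Tkfc triokinase, Glyctk the kinase of glycerate, a side product of glyceraldehyde, and Sord sorbitol dehydrogenase. On GRCm38 (GENCODE M21 annotation) Khk (ENSMUSG00000029162) lies on chromosome 5 at 30921431 to 30931248 on the plus strand. Tkfc (ENSMUSG00000034371) lies on chromosome 19 at 10587791 to 10605654 on the minus strand, and Glyctk (ENSMUSG00000020258) on chromosome 9 at 106152857 to 106158138 on the minus strand. Sord (ENSMUSG00000027227) lies on chromosome 2 at 122234749 to 122265340 on the plus strand, and Slc2a8 (ENSMUSG00000026791) on chromosome 2 at 32972990 to 32982083 on the minus strand. Slc2a5 (ENSMUSG00000028976) lies on chromosome 4 at 150119283 to 150144169 on the plus strand.

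The promoters of 3 members are printed from RefSeq (GRCm38.p6), 250 bases before to 50 bases after the annotated start, 5′ to 3′. Khk and Tkfc are shown because they rose together in PKLR livers. Slc2a8 is shown as a member that did not pass the test in either experiment, as Glyctk, Sord and Slc2a5 also did not. Capitals mark CACGTG, the E-box, and CCAAT, the CCAAT box, read on either strand. Khk is at chr5:30921309-30921608 (plus strand), Tkfc at chr19:10604209-10604508 (minus strand) and Slc2a8 at chr2:32982034-32982333 (minus strand).
Khk: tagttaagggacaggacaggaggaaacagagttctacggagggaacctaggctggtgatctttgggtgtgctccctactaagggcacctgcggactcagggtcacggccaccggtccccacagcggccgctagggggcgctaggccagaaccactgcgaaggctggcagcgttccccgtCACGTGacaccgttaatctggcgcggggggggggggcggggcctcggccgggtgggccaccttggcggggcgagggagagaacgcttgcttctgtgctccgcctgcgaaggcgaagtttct
Tkfc: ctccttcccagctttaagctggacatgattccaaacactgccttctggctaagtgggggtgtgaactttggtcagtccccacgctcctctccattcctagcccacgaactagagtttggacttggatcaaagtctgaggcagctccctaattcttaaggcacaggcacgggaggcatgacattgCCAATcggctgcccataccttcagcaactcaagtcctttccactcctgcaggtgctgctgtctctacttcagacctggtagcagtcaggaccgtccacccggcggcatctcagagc
Slc2a8: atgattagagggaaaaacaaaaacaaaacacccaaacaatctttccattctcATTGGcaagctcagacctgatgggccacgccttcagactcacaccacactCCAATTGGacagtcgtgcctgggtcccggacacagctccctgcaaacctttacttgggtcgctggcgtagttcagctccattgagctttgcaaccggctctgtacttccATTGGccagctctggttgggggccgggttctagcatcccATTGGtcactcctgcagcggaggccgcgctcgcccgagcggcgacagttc
The Khk window holds 1 E-box, whose first base is at -71 from the start, and no CCAAT box. The E-box was found in none of the other 5 members' windows and in 7.15% of the 32851 RefSeq windows of the same length. The Tkfc window holds 1 CCAAT box, at -66, and the Slc2a8 window holds 5, of which a pair overlap on opposite strands; Glyctk holds 1, and 37.4% of all windows hold at least 1. GGGCGG, the GC box, was found in the windows of Khk (1), Sord (2) and Slc2a5 (3), and in 35.7% of all windows. TATAAA was found in no member's window and in 13.6% of all windows. The carbohydrate response element consensus, the paired E-box that ChREBP binds, matched no member's window and 0.0274% of all windows. The start used for Tkfc lies 1396 bases inside the gene's GENCODE boundary, so another annotated start was not covered.

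Depth per library was 29933820 to 45413803 counts, apart from shPKLR replicate 4 with 167891680, and each library detected 20957 to 25250 genes. Levels below are CPM, counts per 1000000 library counts with TMM scaling within each experiment. In both experiments the targeted gene separated the groups without overlap. Pklr averaged 52.95 ± 22.5 CPM in shPKLR and 465 ± 112 CPM in shLUC livers, and 772 ± 220 CPM in PKLR and 122 ± 35.3 CPM in GFP livers (SD, n = 5 each). Hepatocyte markers were high in every library, with a summed level of 7 genes of at least 62571 CPM. In bulk RNA, fewer cells of a type and less RNA per cell cannot be told apart.

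**Figure D1:**
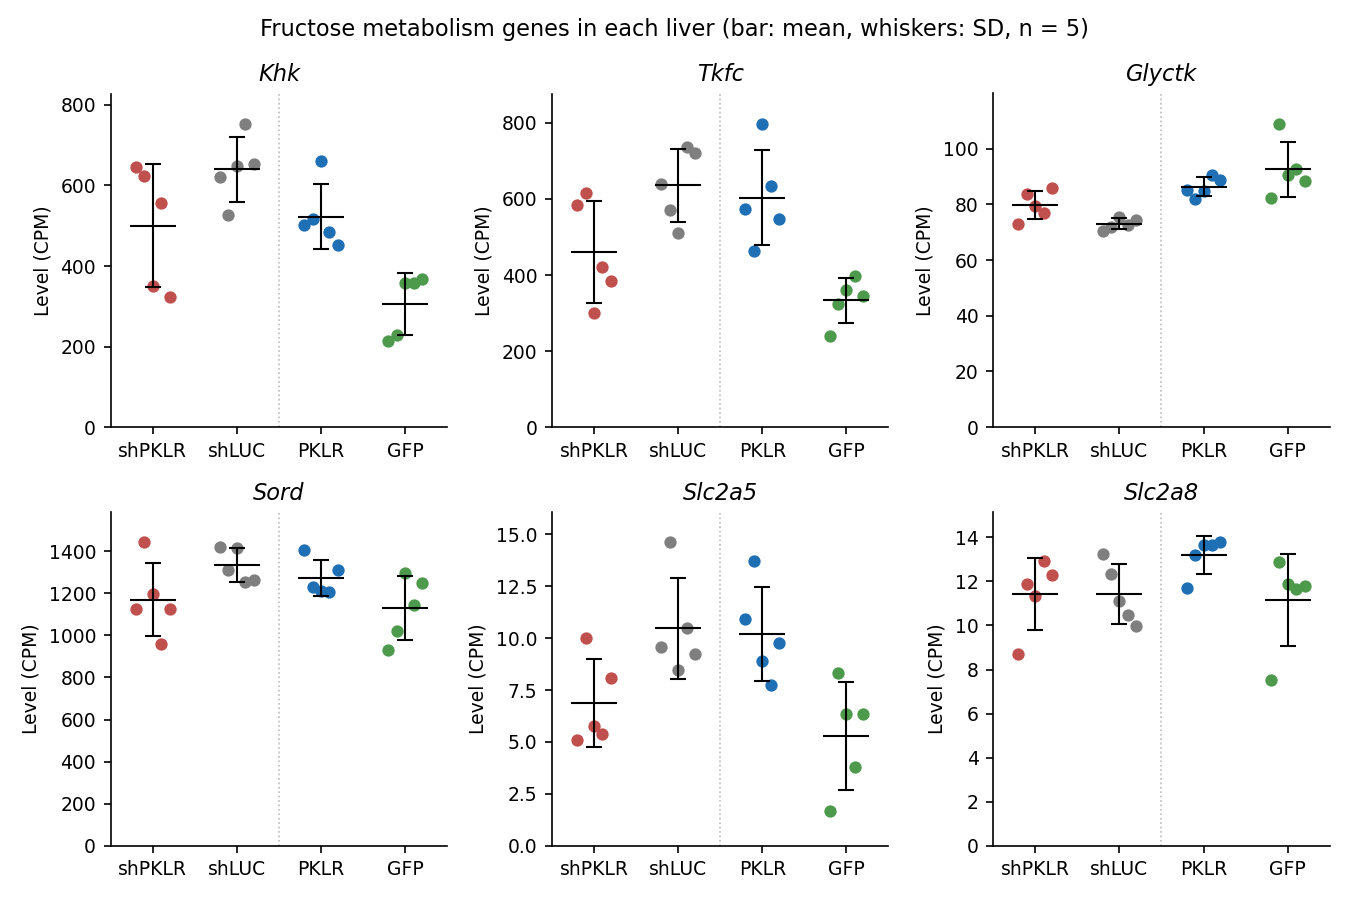
Level in CPM, scaled within each experiment (vertical axes, from 0), of each fructose metabolism gene in each liver, by vector group (horizontal axes); points are livers in order of replicate number, bars are means and whiskers SDs (n = 5). For Khk and Tkfc all PKLR livers lie above all GFP livers, while every other pair of groups within an experiment overlaps.

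With more Pklr, 2 members were higher, Khk and Tkfc, the kinases at the entry of fructose and at the exit of glyceraldehyde. Khk rose 1.71-fold and Tkfc 1.81-fold in PKLR livers, and the groups did not overlap for either gene. The other 4 members did not pass the test in this experiment. The 2 calls of 6 members compare with 2.03% of the 15842 genes tested, and with 1.19% called higher. Groups that did not overlap, the case for 2 of the 6 members, occurred for 5.03% of those genes, 3.1% with PKLR above GFP and 1.93% below. The median log2 fold change of the 6 members was 0.51, beside 0.0057 over all genes tested. Members and lists were chosen with earlier results of these data known. Comparisons with all genes, here and below, are therefore descriptions and not independent support.

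Khk levels were 502, 517, 660, 484 and 451 CPM in PKLR livers 1 to 5, against 214, 229.8, 357, 358 and 368 CPM in GFP livers 1 to 5. The lowest PKLR liver was above the highest GFP liver, and GFP livers 1 and 2 lay apart below the other GFP livers. The means were 523 ± 80.6 CPM in PKLR and 305 ± 76.6 CPM in GFP livers (SD, n = 5 each), a log2 fold change of 0.78 (SE 0.17, edgeR quasi-likelihood adjusted p = 0.043). Tkfc levels were 573, 464, 797, 633 and 547 CPM in PKLR livers, against 239, 323, 361, 398 and 346 CPM in GFP livers. Every PKLR liver again lay above every GFP liver, with PKLR liver 3 the highest and GFP liver 1 the lowest. The means were 603 ± 125 CPM in PKLR and 333 ± 59.5 CPM in GFP livers (log2 fold change 0.86, SE 0.16, edgeR adjusted p = 0.023).

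Both calls stood close to the threshold. With 1 library left out in turn, Khk passed only without GFP replicate 5 (adjusted p = 0.034) and had adjusted p-values of 0.053 to 0.099 in the other 9 fits, with log2 fold changes of 0.67 to 0.85 over all 10. Tkfc passed in 8 of 10 such fits, missing without GFP replicate 2 (adjusted p = 0.053) and without PKLR replicate 3 (0.051). Without GFP replicate 1, the liver lowest in Khk and Tkfc, the log2 fold changes were 0.67 for Khk (adjusted p = 0.067) and 0.76 for Tkfc (adjusted p = 0.0365).

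Among the transporters in this experiment, Slc2a5 averaged 10.2 ± 2.27 CPM in PKLR and 5.30 ± 2.59 CPM in GFP livers (SD, n = 5 each), from 254 to 449 counts a library in PKLR and 70 to 317 in GFP. The levels were 10.9, 13.7, 8.92, 7.76 and 9.76 CPM in PKLR livers, against 1.69, 8.35, 6.33, 3.77 and 6.36 CPM in GFP livers. The ranges overlapped only through PKLR liver 4 and GFP liver 2, and the log2 fold change of 0.95 (SE 0.34) had an edgeR adjusted p of 0.17. Slc2a8 was at 11.7, 13.2, 13.7, 13.7 and 13.8 CPM in PKLR livers, against 7.51, 12.9, 11.9, 11.6 and 11.8 CPM in GFP livers, with overlapping ranges (log2 fold change 0.24, SE 0.13, adjusted p = 0.33). An interval of 2 SE each side reached from -0.011 to 0.50 for Slc2a8.

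Sord and Glyctk did not pass the test between PKLR and GFP livers. Sord was at 1406, 1231, 1212, 1205 and 1310.2 CPM in PKLR livers, against 932, 1023, 1295, 1146 and 1249 CPM in GFP livers (log2 fold change 0.17, SE 0.11, adjusted p = 0.42). The lowest PKLR liver lay above 3 of the 5 GFP livers, and the ranges overlapped. Glyctk was at 85.4, 81.8, 85.0, 90.5 and 88.9 CPM in PKLR livers, against 82.5, 109, 90.6, 92.8 and 88.3 CPM in GFP livers (log2 fold change -0.10, SE 0.08, adjusted p = 0.52). For these genes the intervals of 2 SE each side were -0.047 to 0.39 and -0.26 to 0.058 on the log2 scale, so a doubling lies outside both. GFP liver 1 had the lowest level of its group for all 6 members. Pklr was also lowest there, at 66.7 CPM, and the share of all genes lowest in that liver was not counted.

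Lowering Pklr moved no member past the test. In shPKLR livers 4 members had negative and 2 positive log2 fold changes, with a median of -0.27 beside 0.022 over all genes. edgeR called 0 of the 6, as did DESeq2 and limma-voom, and 2 had an unadjusted p under 0.05, Tkfc and Slc2a5. Over all 15611 genes tested edgeR called 1, Pklr itself, or 0.00641%, and 2339 had an unadjusted p under 0.05. For none of the 6 members did the groups separate, which they did for 3.27% of genes, 1.24% with shPKLR above shLUC and 2.03% below.

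Khk levels were 646, 623, 351, 555 and 324 CPM in shPKLR livers 1 to 5, against 621, 528, 648, 753 and 654 CPM in shLUC livers. The shPKLR livers fell apart into 3 within the shLUC range and 2, livers 3 and 5, well below it. The means were 500.0 ± 152 CPM in shPKLR and 641 ± 80.7 CPM in shLUC livers (SD, n = 5 each), a log2 fold change of -0.36 (SE 0.20, edgeR adjusted p = 0.40). Tkfc levels were 585, 615, 301, 421 and 383 CPM in shPKLR livers, against 639, 571, 511, 736 and 719.9 CPM in shLUC livers. Livers 3, 4 and 5 of the shPKLR group lay below every shLUC liver, and livers 1 and 2 within the shLUC range (log2 fold change -0.46, SE 0.20, adjusted p = 0.31).

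Slc2a5 had the log2 fold change largest in size of the 6 in the knockdown, -0.61 (SE 0.21, edgeR adjusted p = 0.27), at 5.09, 10.01, 5.76, 5.38 and 8.10 CPM in shPKLR livers against 9.56, 14.6, 8.48, 10.5 and 9.25 CPM in shLUC livers. Only shPKLR liver 2 lay inside the shLUC range; the others lay below it. Sord was at 1128, 1443, 1198, 959.6 and 1125 CPM in shPKLR livers, against 1421, 1312, 1416, 1252 and 1266 CPM in shLUC livers (log2 fold change -0.19, SE 0.13, adjusted p = 0.48). All shPKLR livers but liver 2, the highest of both groups, were below the shLUC range for Sord. Glyctk was at 73.0, 83.6, 79.4, 77.1 and 85.9 CPM in shPKLR livers, against 70.6, 71.98, 75.5, 72.6 and 74.5 CPM in shLUC livers (log2 fold change 0.13, SE 0.09, adjusted p = 0.50). Here shPKLR liver 1 lay in the shLUC range and the other 4 above it. Slc2a8 was at 8.72, 11.9, 11.3, 12.9 and 12.3 CPM in shPKLR livers, against 13.3, 12.3, 11.1, 10.5 and 9.97 CPM in shLUC livers, with overlapping ranges. It averaged 11.4 ± 1.62 CPM in shPKLR and 11.4 ± 1.35 CPM in shLUC livers (log2 fold change 0.00, SE 0.13, adjusted p = 0.99), with an interval of 2 SE each side from -0.26 to 0.27.

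**Figure D2:**
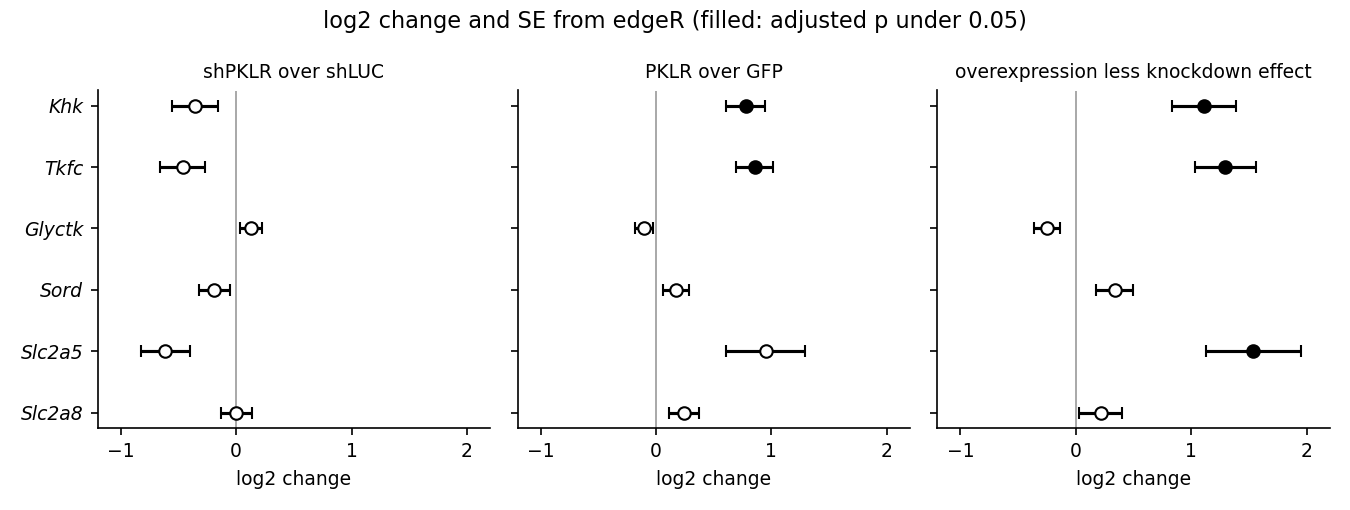
log2 change with its SE (horizontal axes) of each fructose metabolism gene, for shPKLR over shLUC, PKLR over GFP, and the overexpression effect less the knockdown effect; filled points passed the edgeR test. Khk and Tkfc are filled in the overexpression panel and Slc2a5 joins them in the panel of the difference.

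The response of a gene to more and to less Pklr was compared directly in a model of all 20 livers, as the overexpression effect less the knockdown effect. Khk, Tkfc and Slc2a5 differed, each with a positive log2 fold change in PKLR livers and a negative one, short of the test, in shPKLR livers. The difference was 1.11 (SE 0.28, edgeR adjusted p = 0.026) for Khk, 1.29 (SE 0.27, adjusted p = 0.0088) for Tkfc and 1.54 (SE 0.42, adjusted p = 0.035) for Slc2a5 on the log2 scale. For Sord (0.34, SE 0.16, adjusted p = 0.19), Glyctk (-0.25, SE 0.11, adjusted p = 0.17) and Slc2a8 (0.22, SE 0.19, adjusted p = 0.48) it did not pass. The 3 calls of 6 compare with 5.5% of 16407 genes tested, 2.75% called higher and 2.75% lower. Tkfc passed in all 20 fits with 1 library left out, and Khk in 19, missing without PKLR replicate 3 (adjusted p = 0.0505). Slc2a5 missed without shLUC replicate 2 (adjusted p = 0.074), shPKLR replicate 1 (0.056) or 4 (0.066), GFP replicate 4 (0.0605) and PKLR replicate 2 (0.056) or 5 (0.051), and without a filter on low counts (0.0503).

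Levels across the 4 groups depended on whether the experiments were scaled apart or together, a second scaling whose steps were added after the data were seen. For Khk the means were 519 ± 159 CPM in shPKLR, 660.2 ± 81.8 CPM in shLUC, 503 ± 79.9 CPM in PKLR and 297 ± 74.8 CPM in GFP livers with all 20 libraries scaled together (SD, n = 5 each). On that scale shLUC was highest and GFP lowest, PKLR and shPKLR differed by 15.7 CPM, within the spread, and the 207 CPM between PKLR and GFP alone exceeded the larger SD of neighbouring groups. With the experiments scaled apart, PKLR stood above shPKLR by 22.9 CPM, also within the spread, so those 2 groups have no settled order. Scaled apart, the other Khk steps, 118 CPM between shLUC and PKLR and 195 CPM between shPKLR and GFP, exceeded the larger SD. For Tkfc the order was shLUC, PKLR, shPKLR and GFP on both scales. The step between PKLR and shPKLR was 102 CPM scaled together, less than the larger SD of 139.95 CPM, and 142 CPM scaled apart, more than the larger SD of 134 CPM there. The step between shPKLR and GFP was beyond the larger SD scaled together (155 CPM) and within it apart (128 CPM).

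Slc2a5 kept the order shLUC, PKLR, shPKLR and GFP on both scales, and its step between PKLR and shPKLR exceeded the larger SD on both (2.70 CPM scaled together and 3.35 CPM apart). Sord had the same order on both scales, with 1 step beyond the larger SD scaled together, 150.4 CPM between shLUC and PKLR, and none scaled apart. Glyctk was highest in GFP, then PKLR, shPKLR and shLUC, and PKLR and shPKLR differed by 0.22 CPM scaled together and 6.49 CPM apart, the first within and the second beyond the larger SD. Its step between shPKLR and shLUC exceeded the larger SD on both scales (7.51 CPM scaled together and 6.76 CPM apart). The order for Slc2a8 was PKLR, shPKLR, shLUC and GFP; no step exceeded the larger SD scaled together, where the first was 0.83 CPM, and the first alone, 1.76 CPM, did so scaled apart.

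The 2 control groups themselves stood apart. With both experiments scaled together, mean Khk was 2.23 times, Tkfc 2.02 times, Slc2a5 2.097 times and Pklr 4.05 times as high in shLUC as in GFP livers, without overlap for any of the 4. Scaled apart these ratios were 2.10, 1.91, 1.98 and 3.82, also without overlap. Sord was 1.25 times as high in shLUC without overlap scaled together, and 1.18 times with overlap scaled apart. Glyctk in shLUC livers held 0.84 times the GFP mean scaled together and 0.79 times apart, without overlap on either scale, and Slc2a8 overlapped on both. Experiment and control vector cannot be told apart here, so no test was made between them. The share of all genes without overlap between these control groups was not counted. The separations therefore cannot be called particular to these genes.

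Per length, Sord and Khk were the most abundant members and the transporters the least. In CPM per kilobase of merged exons, PKLR livers averaged 541 for Sord, 291 for Khk, 131 for Tkfc, 20.4 for Glyctk, 4.11 for Slc2a8 and 3.00 for Slc2a5, and the order was the same in the other 3 groups. Slc2a2, the GLUT2 gene of the hepatocyte surface, stood at 55.1 CPM per kilobase, above both transporter members.

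Within groups, Khk and Tkfc varied together from liver to liver. After each value was taken less the mean of its own vector group, Pearson's r over the 20 livers was 0.78 and Spearman's rho 0.80 (permutation of livers within groups, p = 0.00054 and 0.00034; adjusted over 15 pairs of members, 0.0081 and 0.0051). Without the 2 livers farthest from the median of Khk, r was 0.75. No other pair of members passed the adjustment. The next was Slc2a5 with Slc2a8, at r = 0.66 (adjusted p = 0.21), which was 0.29 without the 2 farthest livers. Genes outside the members reached r = 0.82 with Khk, and the share of all genes at or above 0.78 was not counted. Joint variation with Khk therefore cannot be called particular to Tkfc. Tkfc averaged 0.94 ± 0.16 times the CPM of Khk in shPKLR and 0.995 ± 0.13 times in shLUC livers, and 1.15 ± 0.16 times in PKLR and 1.12 ± 0.18 times in GFP livers (SD, n = 5 each), so the ratio differed within experiments by less than its spread.

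**Figure D3:**
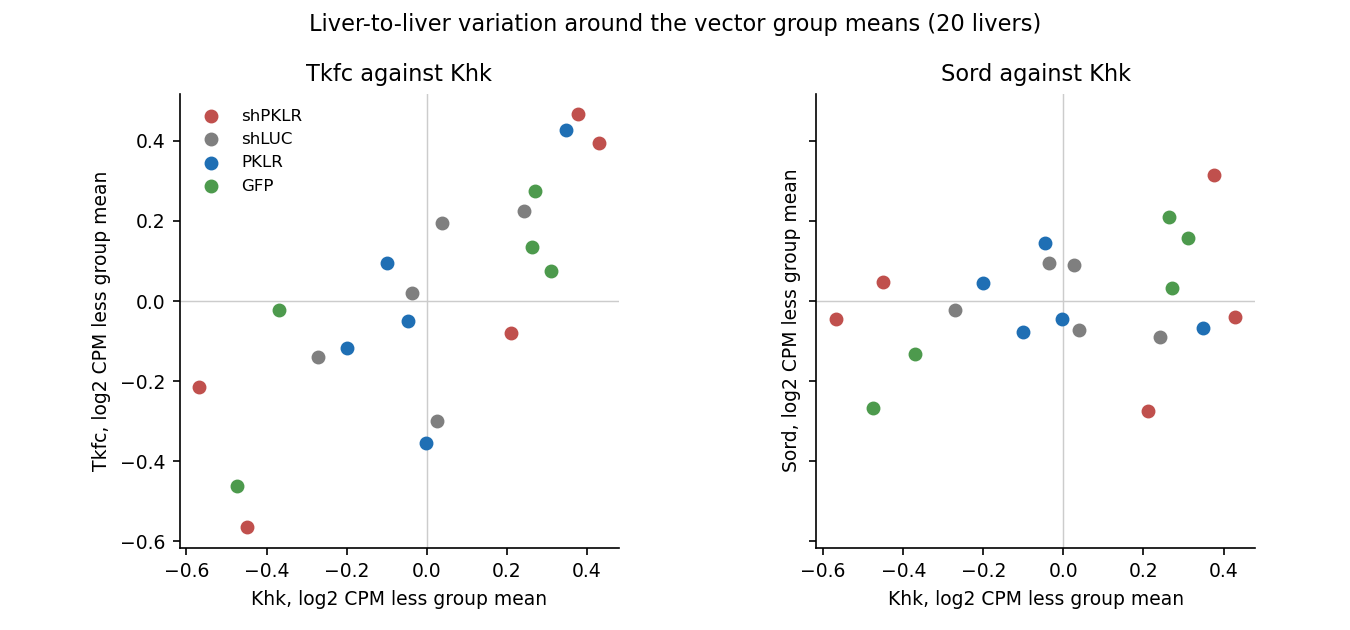
log2 CPM less the mean of the vector group for Tkfc (left) and Sord (right) against Khk, 1 point per liver, coloured by group. Tkfc follows Khk across livers of all 4 groups (r = 0.78), Sord less closely (r = 0.33, adjusted p = 0.60).

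The genes whose liver-to-liver pattern was most like each member's were sought in the same values among 10653 other genes, by Pearson's r over 20 livers, as a description. Tkfc was matched by the enolase genes Eno1 (0.87) and Eno1b (0.86); Eno1b is a near copy of Eno1, so its counts are uncertain. Khk was matched by Pipox (0.82), the peroxisomal sarcosine and pipecolic acid oxidase, Derl2 (0.82), a factor of protein disposal from the endoplasmic reticulum, and Rnd2 (0.82), a small GTPase. Sord was matched by Cyp2e1 (0.92), the ethanol-metabolising cytochrome P450, Ndufv1 (0.92), a subunit of respiratory complex I, and Car5a (0.89), a mitochondrial carbonic anhydrase. Slc2a5 was matched by Mn1 (0.85), Insig1 (0.81), a sterol-regulated membrane protein, and Pdk2 (0.80), a pyruvate dehydrogenase kinase. Without the 2 livers farthest from the median of Slc2a5, r was 0.81 for Mn1, 0.61 for Insig1 and 0.59 for Pdk2. Slc2a8 was matched by Thap7 (0.93), Irf2bp1 (0.92) and F8a (0.92), with r of 0.78, 0.79 and 0.78 without the 2 livers farthest from its median. Glyctk was matched by Spryd3 (0.78), Yif1a (0.75) and Cops7a (0.75).

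Of 45 genes in neighbouring steps (other hexose transporters, polyol and pentitol steps, hexokinases, aldolases and triose handling, glycerate and glyoxylate steps, return to glucose, purine breakdown, carbohydrate-responsive regulators and fructosamine kinases), 40 were tested. In PKLR livers edgeR called 0 of them, beside 7 by DESeq2 and 1 by limma-voom. Of the 40, 15 had an unadjusted p under 0.05, 9 higher and 6 lower. Over all 15842 genes tested there, edgeR called 322 and DESeq2 1107, and 2985 had an unadjusted p under 0.05. In shPKLR livers edgeR called 0, beside 2 by DESeq2 and 0 by limma-voom, and 8 had an unadjusted p under 0.05, 3 higher and 5 lower. Over all 15611 genes tested there, edgeR called 1 and DESeq2 260, and 2339 had an unadjusted p under 0.05. The medians of the neighbouring genes, 0.082 and -0.044, lay closer to 0 than those of the 6 members. The difference between the effects was called for 6 of 40, 5 higher and 1 lower, against 5.5% of all genes. That count was 2 without shLUC replicate 2 or 5 or without PKLR replicate 3 or 4, and 3 without GFP replicate 1.

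Slc2a2 differed by 0.94 (SE 0.25, adjusted p = 0.031), and its log2 fold changes were 0.48 (SE 0.14) in PKLR and -0.49 (SE 0.19) in shPKLR livers. Slc37a4, the glucose 6-phosphate transporter of the endoplasmic reticulum, differed by 0.86 (SE 0.24, adjusted p = 0.038) and Mlx, the partner of ChREBP, by 0.43 (SE 0.11, adjusted p = 0.034). Slc2a4, the insulin-responsive GLUT4 gene of muscle and fat, differed by 2.71 (SE 0.73, adjusted p = 0.035) at 0.12 to 2.99 CPM and 4 to 142 counts over the 20 libraries. Hk2, a hexokinase scarce in hepatocytes, was the 1 gene of the 6 called with a negative difference, -1.50 (SE 0.39, adjusted p = 0.030), at 1.44 ± 0.72 CPM in PKLR and 2.89 ± 0.74 CPM in GFP livers.

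Akr1b3, the aldose reductase that feeds Sord, was at 5.63 ± 0.89 CPM in PKLR and 6.44 ± 2.54 CPM in GFP livers, and at 5.53 ± 1.09 CPM in shPKLR and 5.19 ± 1.04 CPM in shLUC livers, with no test passed. Mlxipl, the ChREBP gene, had log2 fold changes of 0.37 (SE 0.26) in PKLR and 0.43 (SE 0.26) in shPKLR livers and a difference of -0.092 (SE 0.38, adjusted p = 0.90).

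**Figure D4:**
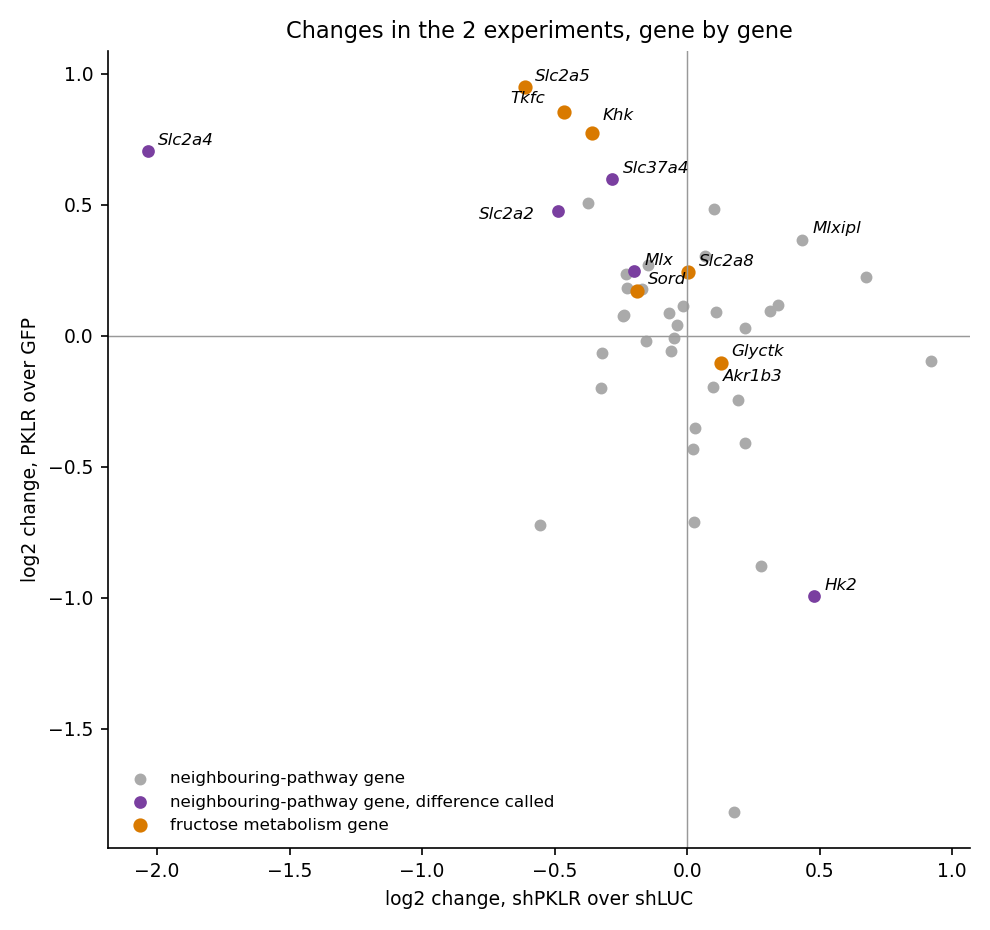
log2 change for PKLR over GFP (vertical) against that for shPKLR over shLUC (horizontal), 1 point per gene, for the 6 fructose metabolism genes and genes of the neighbouring-pathway list; named points are members, genes with a called difference, and Akr1b3 and Mlxipl. Khk, Tkfc, Slc2a5 and Slc2a2 lie at upper left, with a positive change in PKLR and a negative one in shPKLR livers, and Hk2 at lower right.

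Other cell types were followed by marker lists beside these results. The 7 stellate cell markers summed to 133 to 249.4 CPM in PKLR and 201 to 421 CPM in GFP livers. All 7 had negative log2 fold changes in PKLR livers (median -0.64), with 0 called. An unadjusted edgeR p under 0.05 was found for 6 of them, beside 2985 of all 15842 genes tested. The part of these markers in the rise of Khk and Tkfc was not tested. In shPKLR livers 4 of the 7 were higher and 3 lower, with 0 called. In the difference 2 of the 7, Des and Col3a1, were called lower, beside 2.75% of all genes tested. The 6 lymphocyte markers summed to 5.26 to 10.8 CPM in PKLR and 5.95 to 20.5 CPM in GFP livers, all 6 with negative log2 fold changes and 0 called. In shPKLR livers all 5 lymphocyte markers tested were higher (median log2 fold change 0.37), with 0 called. All 6 were negative in the difference (median -0.98), with 0 called. The 7 macrophage markers summed to 56.1 to 178 CPM in PKLR and 60.1 to 225 CPM in GFP livers. They summed to 73.2 to 192 CPM in shPKLR and 75.3 to 139 CPM in shLUC livers, so the ranges overlapped in both experiments. Of these 7 markers, 4 were higher and 3 lower in PKLR livers, with 0 called. In shPKLR livers 6 of them were higher and 1 lower, with 0 called. Their differences were positive for 2 and negative for 5, and 1, Marco, was called lower, beside 2.75% of all genes tested. Of 5 enterocyte markers, Vil1 and Lct were under 1 CPM in every liver, and Sis had no entry in the counts of either experiment. Slc5a1 averaged 0.77 to 1.19 CPM over the 4 groups. The fifth, Fabp2, averaged 83.1 ± 11.3 CPM in shPKLR and 108 ± 11.7 CPM in shLUC livers, and 100.2 CPM in PKLR and 119 CPM in GFP livers. The list, most of it Fabp2, summed to 75.4 to 97.9 CPM in shPKLR and 95.7 to 127 CPM in shLUC livers. In the overexpression it summed to 79.0 to 113 CPM in PKLR and 96.7 to 146 CPM in GFP livers. Its part in the levels of Slc2a5 was not tested.

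Counts of 3 members could include reads of other genes. The exons of Tkfc share 596 bases (12.9%) with Cyb561a3 and 328 bases (7.1%) with Ddb1, both on the opposite strand. Ddb1 was at 185 ± 16.8 CPM in PKLR and 165 ± 9.97 CPM in GFP livers (log2 fold change 0.17, SE 0.08), and Cyb561a3 at 6.54 ± 0.84 CPM in PKLR and 6.89 ± 0.96 CPM in GFP livers (SD, n = 5 each). Glyctk shares 2203 bases (52.1% of its exons) with the antisense gene D030055H07Rik, whose mean was between 0.57 and 0.84 CPM in every group. Sord shares 35.9% of its 31-base words with the processed pseudogene Gm6652 (chromosome 1, 153619604 to 153620673), which held 5.66% to 16.1% as many counts as Sord, so the level of Sord is uncertain. Khk, Slc2a5 and Slc2a8 shared no 31-base word with another annotated transcript, and the gene counts do not separate the KHK-A and KHK-C isoforms.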

How the data were processed

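The data are total liver RNA of 20 mice. Per the labels' protocols, a stranded library kit was used on total RNA. For each experiment the authors deposited read counts by Ensembl gene, unnormalized whole numbers with 1 column per liver, and 0 value columns had no liver. The submitters' processing notes name HISAT2, DESeq2, GRCm38 and mm10. Their versions, the strand setting, the annotation release and the program that counted reads were not given in the sources used here. P-values measure the spread between these libraries, 1 per liver. Symbols, positions and exon lengths came from GENCODE M21, which held 26912 of 27052 identifiers of the knockdown table and 26146 of 26286 of the overexpression table; promoters came from RefSeq for all 6 members.

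Tests used edgeR 4.0.16 (robust quasi-likelihood, R 4.3.3) after filterByExpr and TMM, on all genes, with Benjamini-Hochberg adjustment at 0.05; each SE is the absolute log2 change over the root of its F statistic. The difference of effects used the 25238 genes in both tables. Log2 CPM had a prior count of 2; permutations numbered 100000. All 6 members passed the filter in both experiments. Alternatives were RLE, other filters (none, or over 1 CPM in 5 libraries), DESeq2 1.42.0, limma 3.58.1 (voom), the replicate number as a block, 1 fit of all libraries, mitochondrial and ribosomal RNA genes left out, and each library left out. The steps were tested on simulated counts.

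Members and lists were chosen with earlier results of these data known. Named were the members, Pklr, called neighbouring-pathway genes with Slc2a2, Akr1b3 and Mlxipl, and up to 3 genes most correlated with each member at a mean of at least 2 CPM, passing over Gm-numbered and Rik genes; some results of the neighbouring-pathway list and of the correlations are not reported here. Overlapping genes, Gm6652 and summed markers were added as checks of the counts.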

Additional observations from a re-analysis of the deposited data

Results flagged for a closer look

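Khk, Tkfc and Slc2a5 differed in their response between the 2 experiments in the model of all livers: the log2 difference, overexpression effect less knockdown effect, was 1.11 for Khk, 1.29 for Tkfc and 1.54 for Slc2a5. Among neighbouring genes it was 0.94 for Slc2a2, 0.86 for Slc37a4, 0.43 for Mlx, 2.71 for Slc2a4 and -1.50 for Hk2. These passed the adjusted test of the difference itself.

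For Slc2a8, 1 liver stood far from the other 4 of its group in 2 groups. The lowest PKLR liver, replicate 1, was at 11.7 CPM while the others lay between 13.2 and 13.8 CPM. The lowest GFP liver, also replicate 1, was at 7.51 CPM while the others lay between 11.6 and 12.9 CPM. Of 24 sets of member and group examined, 2 met this rule, and chance gives about 1 in 20.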

How the results depend on the processing

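Khk and Tkfc rose in PKLR livers under all 8 settings other than leaving out a library, with log2 fold changes of 0.76 to 0.80 and 0.84 to 0.87, and the members called there stayed at 2; with 1 library left out that count was 0 to 2 (0 without GFP replicate 2 or PKLR replicate 3, 2 without GFP replicate 5, 1 otherwise). The knockdown called 0 members under every setting. Over all genes the knockdown count, 1, was 7 with RLE, 17 without a filter, 260 with DESeq2, 8 with limma-voom, 3 with the replicate number as a block, 114 in 1 fit of all libraries and 7 without mitochondrial and ribosomal RNA genes, and 1 to 12 with 1 library left out (3 without shLUC replicate 1, 6 without shPKLR replicate 1 or 3, 12 without shPKLR replicate 2). The overexpression count, 322, was 1107 with DESeq2, 544 with the block, and 128 (without GFP replicate 4) to 469 (without GFP replicate 5) with 1 left out, and under 1.5 times from 322 only without GFP replicate 3 or 5. The count for the difference, 902, was 1614 with DESeq2 and 485 (without shLUC replicate 2) to 1384 (without shPKLR replicate 2) with 1 left out (517, 588, 577 and 600.0 without GFP replicate 1, GFP replicate 4, PKLR replicate 3 and shLUC replicate 5), and the members called there were 2 to 3. Neighbouring-pathway calls in the knockdown were 2 with DESeq2; in the overexpression they were 1 without a filter, 7 with DESeq2, 1 with limma-voom, 5 with the block, 1 in the fit of all libraries and 0 to 2 with 1 library left out (1 without GFP replicate 5, 2 without PKLR replicate 1); for the difference, 6, they were 2 to 8 with 1 left out. The near-zero knockdown change of Slc2a8, 0.003, changed sign to -0.003 with RLE, -0.006 without a filter, -0.001 with DESeq2 and -0.001 with the block, and ranged from -0.046 to 0.086 with 1 library left out. The cause of these moves was not tested. Same-numbered livers did not consistently deviate together (correlations of -0.20 to 0.35 in the knockdown and -0.11 to 0.26 in the overexpression), so the block rests on a shared number only. In the knockdown, replicate 4 alone correlated more with its own number than with any other (0.35 against at most 0.31). In the overexpression, replicates 1 (0.26 against 0.13) and 5 (0.10 against 0.0024) alone did so. Slc2a5, at 70 to 317 counts in GFP libraries, is the least precise member there.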

Other observations

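The deepest library, shPKLR replicate 4, differed from the rest in how counts fell between Sord and its pseudogene. Gm6652 held 5.66% as many counts as Sord there, and 12.6% to 16.1% in the other 19 libraries. This value was chosen after it was seen, and the cause was not tested.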
